A study of Drosophila melanogaster with 4 samples.

Results

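Binding of an Abd-B-GFP fusion protein was examined at dsx (doublesex) and fru (fruitless), the sex differentiation genes of Drosophila melanogaster, both on chromosome arm 3R. Peaks were taken by position alone, with coordinates on FlyBase release 5: a peak belonged to dsx when its midpoint lay between 3740000 and 3810000 and to fru when it lay between 14230000 and 14385000. These windows hold the genes with their flanks and are 70 kb and 155 kb long. They contained 20 peaks, 5 at dsx and 15 at fru, of 1048 peaks on 3R and 4389 in the whole list. The material was chromatin of whole L3 larvae of the strain Abd-B-GFP, sex unknown, in the background w; PBac{y[+]-attP-3B}VK00037, with a transgene in which GFP takes the place of the Abd-B stop codon. All 4 libraries came from this strain, and their titles carry the code W3L. They were 2 of chromatin precipitated with a polyclonal antibody against GFP and 2 of input DNA, without a strain lacking the tag. The protocol text names another stock, y; bw cn sp, and the sample labels were followed here. The peak list keeps no library apart, so no value below has a replicate error, and no difference was tested against one. Intervals are exact and cover counting error between peaks only. Neighbouring peaks are not independent, which makes such intervals too narrow.

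dsx encodes a zinc-finger transcription factor of the DM family, which is spliced into a male and a female form and directs most visible differences between male and female flies. fru encodes zinc-finger transcription factors with a BTB domain, and its male-specific forms are known for their part in the neurons of courtship behaviour. Abd-B is the homeodomain protein that sets the identity of the posterior abdominal segments and the genital disc. In the adult abdomen Abd-B and the Dsx proteins are known to act on shared target genes, among them the bab genes of pigmentation. In a whole larva a peak averages over cells with and without the protein, and the list does not tell in which tissue a site was bound.

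At dsx, 1 peak scored far above the other 4. This strongest peak, at 3788292 to 3789622, was 1331 bp wide with a score of 82.41. Scores are those the authors deposited with the peaks. The file does not define the scale, and higher is taken here as stronger. This peak ranked 37 of 1048 on 3R by score and 38 by width. The next in score, at 3754650 to 3755298, had 24.95 and a width of 649 bp. It was followed by 15.42 at 3762575 to 3762966, 9.44 at 3746073 to 3746275 and 9.22 at 3792281 to 3792672. The peaks with 24.95 and 15.42 were above the 3R median of 14.19, and the other 2 were below it. The peak with 9.22 lay 2658 bp beyond the strongest one, the shortest gap of the window, and was among the weaker peaks of the arm, since 86.2% of 3R peaks scored at least as high. The narrowest peak was the first one, with 203 bp and a score of 9.44, and it was also the most isolated, 8374 bp from its neighbour.

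The 5 dsx peaks fell into a group of 3 and a pair. The 3 peaks between 3746073 and 3762966, with 9.44, 24.95 and 15.42, were separated by 8374 and 7276 bp. The pair began after 25.3 kb without a peak, and after the pair 24.3 kb passed before the next peak, which lies outside the window. Stretches at least that long made up 28.3% and 29.3% of the 1047 gaps between neighbouring peaks on 3R. Just outside the window, 6.6 kb before its start, stood a peak with a score of 20.96, and 6.9 kb after its end one with 8.19.

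The fru window is longer and held more peaks, and 5 of the 15 had scores above 50, called strong here. Of all 3R peaks, 11.0% had such scores. That line was chosen with the scores in view. The highest, at 14273695 to 14274997, had a score of 101.47 and a width of 1303 bp and ranked 28 of 1048 on 3R by score. Next came 14299831 to 14300605, with 68.54 and a width of 775 bp. The one at 14333480 to 14333958 had 57.18 and was 479 bp wide. The peak at 14272746 to 14273493 had 54.70 with 748 bp, and the one at 14237976 to 14238677 had 54.46 with 702 bp. These 5 ranked between 28 and 96 on the arm. The remaining 10 fru peaks had scores of 7.14 to 22.67, with 9.77 as their median. No fru peak lay between 22.67 and 54.46, a range that held 19.6% of all 3R peaks. Its bounds are neighbouring fru scores, so it is empty at fru by construction. The weakest, at 14288209 to 14288434 with 7.14 and 226 bp, was near the bottom of the arm, since 99.0% of 3R peaks scored at least as high.

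**Figure D1:**
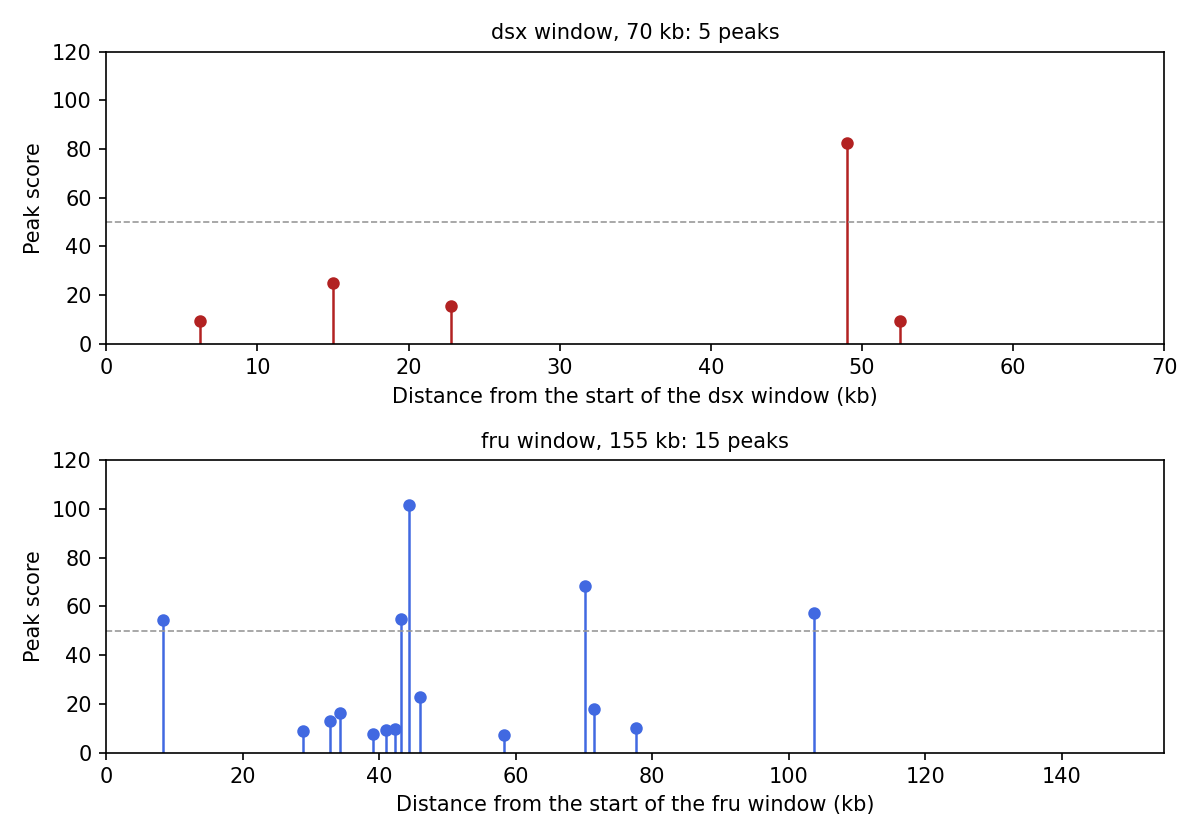
Score of each peak against the distance of its midpoint from the start of the window in kb, for dsx (top, 70 kb, 5 peaks) and fru (bottom, 155 kb, 15 peaks). The dashed line marks a score of 50, which 1 dsx peak and 5 fru peaks exceed, and the last part of the fru window holds no peak.

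The strong fru peaks were spread along the locus rather than gathered at 1 place. From the first, 8.3 kb into the window, 34.1 kb passed to the next strong peak. The peaks with 54.70 and 101.47 were separated by only 201 bp, the shortest gap at the locus. A further 24.8 kb led to the peak with 68.54, and 32.9 kb more to the peak with 57.18. That last one was the most isolated fru peak, with 25.8 kb free of peaks before it and 58.8 kb after it. Stretches of 58.8 kb or more made up 11.8% of the gaps on 3R. The part of the window beyond 14333958 thus held no peak, and the nearest peak past its end stood 7.7 kb outside with a score of 9.73. On the other side the nearest peak outside, 5.2 kb before the start, had 14.98.

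Most fru peaks belonged to 1 dense run. When peaks with gaps of at most 5 kb were joined, 9 of the 15 (60.0%) formed a run from 14258677 to 14276275, 17.6 kb long. Its scores lay between 7.49 and 101.47 around a median of 12.76, and 7 of the 9 were below 50. Its strongest part was a group of 4 peaks at 14272203 to 14276275, within 4.07 kb, separated by 281, 201 and 824 bp. Of the 661 runs on the whole arm, 69.0% were single peaks, as were 4 of the 6 runs at fru. On the arm 4 runs (0.605%) had 9 or more peaks, the fru run included, and these held 45 of the 1048 3R peaks. The other runs of this size had 9, 12 and 15 peaks and highest scores of 15.11, 73.31 and 61.95. Among these 4 runs the one at fru held the strongest peak, while its median score of 12.76 was above only that of the other run of 9, 11.05. With gaps of at most 2 kb the largest fru run had 6 peaks, and with 10 kb it again had 9. At dsx the largest run was the pair that holds the strongest peak. With gaps of at most 2 kb no dsx peaks were joined, and with 10 kb the largest run was the group of 3 without the strongest peak.

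By median gap, peaks were closer to each other at fru than at dsx. Of the 14 gaps at fru, 5 (35.7%) were under 1 kb, and the median gap was 2707 bp. At dsx 0 of 4 gaps were under 1 kb, and the median was 7825 bp. Both medians rest on few gaps, and their difference was not tested. Only gaps between peaks of the same window count, so the peak-free end of the fru window does not enter. Among 3R windows of the same length with 3 or more peaks, the typical window of 155 kb had a median gap of 10062.5 bp, and 85.2% of the 128 windows had one at least as wide as that of fru. The typical window of 70 kb had 6729.75 bp, and 45.3% of the 170 windows had a median gap at least as wide as that of dsx. Beside these windows fru was thus closely spaced, and dsx was slightly wider spaced than their median. More peaks in a window of fixed length tend to leave shorter gaps, and most of these windows held fewer peaks than fru. The 8 windows of 155 kb with 15 or more peaks had median gaps of 1214.5 to 7405.5 bp. The 2707 bp of fru lies inside that range, so its spacing does not stand apart from its number of peaks. On all of 3R, 17.7% of the gaps were under 1 kb and the median was 9887 bp. A gap inside a window cannot exceed the window's length, so the longest gaps of the arm, up to 383111 bp, have no counterpart at the loci. Merging peaks less than 1 kb apart raised the fru median gap to 5700 bp and left that of dsx as it was. Among peaks at or above the 3R median score the median gap was 8247 bp at fru and 16300.5 bp at dsx, since fewer peaks lie in the same window.

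**Figure D2:**
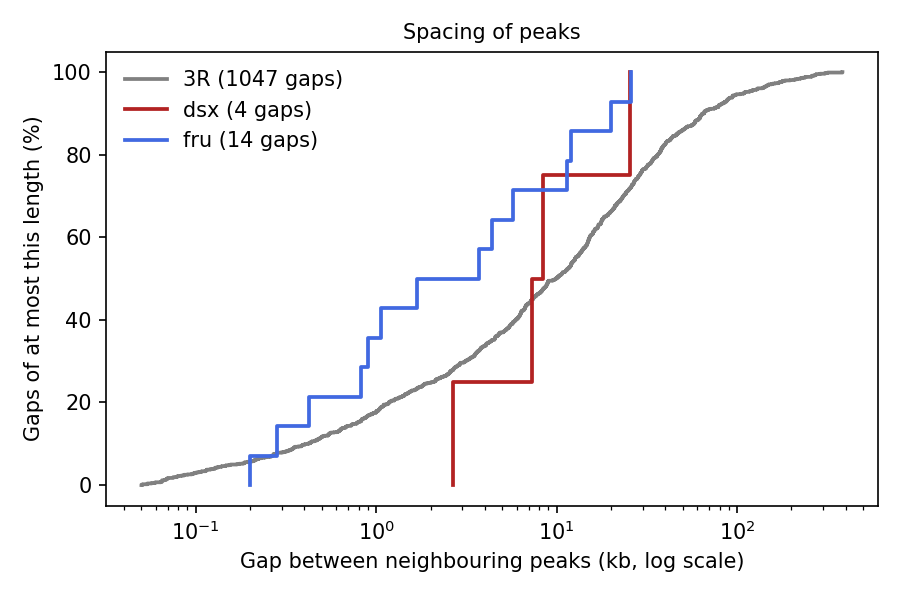
Cumulative share of gaps between neighbouring peaks in percent against gap length in kb on a log axis, for dsx (4 gaps), fru (14 gaps) and all of 3R (1047 gaps). The fru line lies to the left of the 3R line over most of its range, with a median of 2707 bp against 9887 bp, and the shortest dsx gap is 2658 bp.

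The number of peaks per length did not separate the 2 loci. dsx had 7.14 peaks per 100 kb (95% Poisson interval 2.32 to 16.7) and fru 9.68 (5.42 to 16.0). The ratio of fru to dsx was 1.35, with an exact interval from 0.468 to 4.77, which includes lower, equal and higher density at fru. 3R as a whole had 3.76 per 100 kb between its first and last peak, below the interval of fru and inside that of dsx. In stretches of 70 kb, the length of the dsx window, fru varied widely: 86 stretches laid every 1 kb held from 1 to 14 peaks with a median of 8.5, and 59 of them held 5 or more. The first such stretch held 11 peaks and the last held 1.

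Beside windows of the same length on 3R, outside both loci, fru stood high by number and dsx moderately so. Of 176 windows of 155 kb, 8 (4.55%) held 15 or more peaks, with a median of 5 and quartiles of 2 and 8. Of 393 windows of 70 kb, 75 (19.1%) held 5 or more peaks, with a median of 2 and quartiles of 0 and 4. Peaks covered 4.96% of the fru window, a share that 9 of the 176 windows reached (5.11%), and 4.24% of the dsx window, which 51 of the 393 reached (13.0%). When peaks less than 1 kb apart were merged first, fru kept 10 regions and 9.66% of the windows held as many, whereas dsx kept 5 and 11.5% of the windows held as many. Peaks less than 1 kb apart therefore account for part of the fru count and for none of the dsx count. These shares describe the arm and are not tests.

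**Figure D3:**
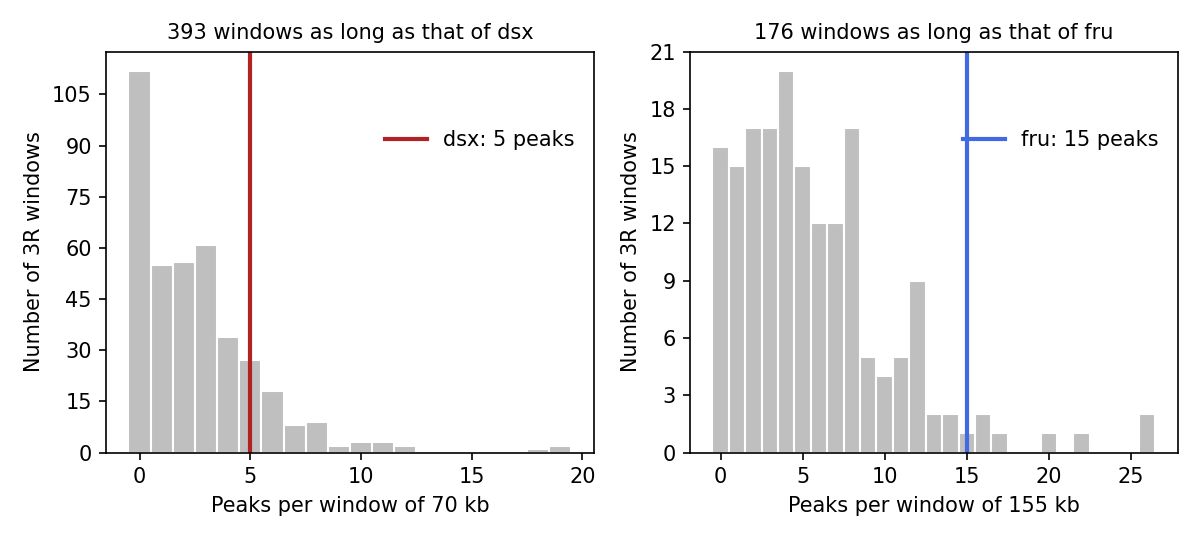
Number of 3R windows against the number of peaks they hold, for windows of 70 kb (left, 393 windows) and 155 kb (right, 176 windows) that do not overlap either locus. The coloured line marks dsx with 5 peaks, reached by 19.1% of the windows, and fru with 15 peaks, reached by 4.55%.

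By typical score neither locus stood apart from the arm. The median score was 15.42 at dsx and 16.28 at fru, against 14.19 over all 3R peaks. Among windows with 3 or more peaks, 76 of 170 (44.7%) had a median at least as high as dsx, and 53 of 128 (41.4%) one at least as high as fru. Peaks at or above the 3R median numbered 3 of 5 at dsx and 8 of 15 at fru. When the strongest peak was left out of the locus and of each window alike, the dsx median was 12.43, which 56.5% of the windows reached, and the fru median was 14.52, which 39.1% reached.

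The highest score of each locus was reached elsewhere on the arm too. Among windows with 3 or more peaks, 14.1% of the 170 of 70 kb reached that of dsx. Of the 128 such windows of 155 kb, 13.3% reached that of fru. Few of the windows with fewer peaks reached these scores, so the shares among all windows would be lower. The number of peaks with scores above 50 was where fru stood above the windows. A window with more peaks also has more that can pass a line, and most windows held fewer than fru. A score above 50 was reached by 5 of 15 fru peaks (33.3%, exact 95% interval 11.8 to 61.6%) and by 1 of 5 dsx peaks (20.0%, 0.505 to 71.6%), beside 11.0% of all 3R peaks. The 3R share lies just below the fru interval and inside that of dsx. Neighbouring peaks are not independent, and the line was set with these scores in view. The intervals therefore cannot separate a locus from the arm. None of the 176 windows of 155 kb (0.00%) held 5 peaks above 50; the highest number was 3, and 100 of them held 0. In windows laid every 1 kb along the arm the highest number was 4. With peaks less than 1 kb apart merged, fru had 4 above 50, and the highest number in the 176 windows was 3. The line at 50 was drawn after the scores had been seen, and it lies in the range without fru peaks. With a line at 40, 2 of the windows (1.14%) held 5 or more such peaks, and with a line at 25, 8 did (4.55%). With a line at 60, fru had 2 such peaks and 13 windows (7.39%) had at least as many. Above 75 each locus had 1 peak, beside 4.77% of all 3R peaks. On the 5 major arms, 3 of 761 windows (0.394%) held 5 or more peaks above 50. For dsx, 90 of 393 windows of 70 kb (22.9%) held at least 1 peak above 50.

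The strongest peak was also the widest at each locus. In all, 1 of 5 dsx peaks (20.0%) and 1 of 15 fru peaks (6.67%) were at least 1000 bp wide, beside 9.35% of 3R peaks. The dsx peak with 82.41 was wider than the 968 bp that were the median of the 35 peaks on 3R, itself included, with a score between 0.8 and 1.2 times its own (quartiles 785.5 and 1110.5 bp). The fru peak with 101.47 lay just under the upper quartile of its 22 such peaks, 1322.5 bp. The other strong fru peaks were narrower, and the 5 above 50 had a median width of 748 bp, against 949 bp (quartiles 773 and 1293) for the 115 such peaks of 3R. The peak with 57.18, at 479 bp, was the narrowest of the 5. The 10 weaker fru peaks had a median width of 294 bp, against 383 bp for the 933 peaks up to 50 on the arm. Neither comparison was matched for score, and on 3R stronger peaks were wider. The 3R peaks above 50 reach a score of 254.32, well above the highest at fru. Over all peaks of a locus the median width was 392 bp at dsx and 454 bp at fru, close to the 415.5 bp of 3R.

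**Figure D4:**
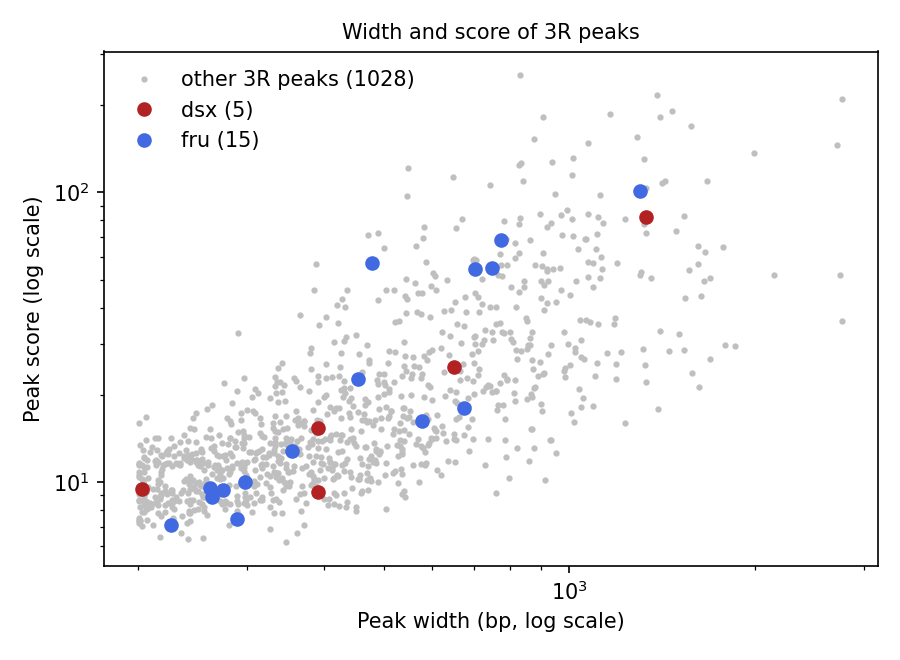
Score against width in bp, both on log axes, for the 5 dsx peaks, the 15 fru peaks and the other 1028 peaks of 3R. The strongest dsx and fru peaks, with 1331 and 1303 bp, lie near each other at the upper right, and the 479 bp fru peak with a score of 57.18 lies to the left of the other strong ones.

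The windows include flanks, and which part of a gene a peak lies in was not analysed here. In the RefSeq table of release 6, used for names only, both genes are on 3R. There dsx (gene ID 40940) has lds and CD98hc as its neighbours among protein-coding genes, and fru (gene ID 42226) has CG10864 and CG7691. Peaks near the ends of a window, such as the first dsx peak and the first fru peak, may therefore lie in or beside a neighbouring gene. With 10 kb trimmed from both sides of each window, dsx kept 4 of its 5 peaks and fru 14 of its 15, and in each case the peak lost was the first. At fru that peak, with a score of 54.46, is 1 of the 5 above 50.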

How the data were processed

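The data are 1 peak list of the whole series in GFF3 format, with 1 start, 1 end and 1 score for each peak. Per the file headers, coordinates are on FlyBase release 5, with MACS as the source. Per the submitters' processing notes, the tools were CASAVA (1.7.0.2, 1.7.0.3), BWA and MACS2. The score is taken to be a value of the peak caller, which the authors deposited without a definition. How peaks were thresholded, reads filtered and input libraries used was not given in the sources used here. Depth per library is unknown. A score of this kind can rise with depth as well as with enrichment.

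Peaks were assigned by midpoint. Gaps are the bases between neighbouring peaks. Windows of the same length were laid end to end from position 1 of 3R to its last peak, and those overlapping either locus were left out; medians used windows with 3 or more peaks. Shares have exact Clopper-Pearson and densities exact Poisson 95% intervals. At each locus the plan was to describe in full the 5 highest scores, the widest and most isolated peaks, and the largest run. The run used gaps of at most 5 kb, and other peaks were given by range and count. The loci and measures were chosen with earlier results of these data known. The window and gap calculations were checked on simulated peaks. Other genes of the sex determination pathway, and sequences, were not analysed here for want of a release 5 genome and annotation. Calculations used Python 3.11.15, NumPy 2.4.6, SciPy 1.17.1, pandas 2.3.3 and Matplotlib 3.10.9.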

Additional observations from a re-analysis of the deposited data

How the results depend on the processing

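Assigning peaks by any overlap of 1 bp changed neither count. Limiting the list to peaks at or above the 3R median score left 3 peaks at dsx and 8 at fru, by construction of a shorter list. Merging peaks less than 1 kb apart changed the share of windows with as many peaks to 11.5% for dsx and 9.66% for fru. With the strongest peak left out of the locus and of each window, the share of windows with a median score at least that of dsx was 56.5%. Shifting the windows by 0.5 of their length, laying them every 1 kb or taking them from the 5 major arms left the shares for number between 17.8 and 19.4% for dsx and between 3.42 and 4.42% for fru. Of 62 alternative values, 50 stayed within 1.5 times a count or within the binomial interval of a share or median, and 12 moved further. Beside those already given, these were the share of 70 kb windows with as many strong peaks as dsx, 40.2, 28.2 and 15.8% with lines at 25, 40 and 60, the fru count above 75, 1 peak, and the largest dsx run with gaps of at most 2 kb, 1 peak. For medians the rule is weak, since at dsx the interval spans the whole range of its few values. Among peaks at or above the 3R median score, median gaps of 8247 bp at fru and 16300.5 bp at dsx counted as unmoved. The reported median gaps were 2707 and 7825 bp. All lines on the score, 50 included, other run gaps, windows every 1 kb and the removal of the strongest peaks were chosen after seeing the data. These values come from no test. No paired analysis was possible because each peak has 1 value for all libraries together, and no replicate could be left out for the same reason. Depth limits the weakest peaks first, such as the fru peaks near 7, but it is unknown here.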

Other observations

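One of the strongest peaks of the arm stood outside the dsx window, before its start. It lay at 3711229 to 3712799, 27.2 kb before the start of the window, with a width of 1571 bp. Its score of 169.96 ranked 8 of 1048 on 3R and exceeded every peak at dsx and fru. Which gene it lies in was not analysed here.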
